A study of Mus musculus with 16 samples.

Results

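The effect of losing SHP on the liver was measured here as the average of its effects on 2 diets, with 8 arrays of SHP-/- mice against 8 arrays of wild type mice. All 16 of the 16 arrays entered the comparison. The 4 groups, of 4 mice each, were SHP-/- mice fed a western diet, wild type mice fed a western diet, SHP-/- mice fed chow and wild type mice fed chow. Every mouse was a C57Bl/6Hsd male, killed at 10 months of age after a night without food, with its diet given for 6 months from the age of 4 months. Each array held the liver RNA of 1 mouse, made from 1 µg of total RNA as biotinylated cRNA on an Illumina mouse BeadChip, an array of bead-bound probes. The labels give the genotype as SHP-/- and name neither the allele nor the cells in which it is lost. A main effect is the mean of 2 differences, SHP-/- minus wild type in western-fed mice and SHP-/- minus wild type in chow-fed mice, on the log2 scale of the normalised signal. A gene was called where limma's moderated test gave a Benjamini-Hochberg adjusted p under 0.05 over the 9095 genes tested. Called genes were classed as alike where both differences had 1 sign, the smaller was at least 0.5 of the larger and the unadjusted p for the difference between diets was 0.05 or more. They were classed as unequal where that difference between diets had an adjusted p under 0.05.

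SHP, encoded by Nr0b2, is an orphan nuclear receptor with no DNA-binding domain that binds other nuclear receptors and represses the genes they drive. In the liver, bile acids activate FXR (Nr1h4), FXR induces SHP, and SHP acts on LRH-1 (Nr5a2) and HNF4α (Hnf4a) to lower Cyp7a1 and so the synthesis of bile acids from cholesterol. SHP has also been linked to lipid storage, methionine and homocysteine metabolism, and inflammation in the liver. The Nr0b2 probe could not check the genotype labels. Its raw signal lay between 47.1 and 59.7 in SHP-/- arrays and between 47.8 and 55.2 in wild type arrays, and it was detected in 0 of 16 arrays, with a lowest detection p of 0.227. Mean raw signal per group was 316 in SHP-/- and 360 in wild type mice on the western diet, and 294 in SHP-/- and 319 in wild type mice on chow. On average 46% of probes were detected in SHP-/- and 49.5% in wild type livers on the western diet, and 45.4% in SHP-/- and 45.1% in wild type livers on chow. Hepatocyte markers were present: the summed signal of the 9 tested of 12 was 170160 to 187024 per array in SHP-/- and 161764 to 170141 in wild type livers on the western diet, and 175446 to 186635 in SHP-/- and 168848 to 183101 in wild type livers on chow. Of the 9, Alb and Serpina1a rose in the main effect and 0 fell, where 5.96% of all tested genes rose and 7.72% fell. Serpina1a lost its call when arrays were scaled by the median of all probes (limma, adjusted p = 0.070). The albumin probe on this array was detected in 8 of 16 arrays only and says little about albumin.

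The main effect called 1244 of 9095 genes, 13.7% of those tested, of which 542 rose and 702 fell in SHP-/- livers; 27 rises and 70 falls passed 2-fold. The division into rises and falls depended on how arrays were scaled, with 43.6% of calls rising under quantile normalisation, 11.4% when arrays were scaled by the median of all probes, 60.8% when scaled by the median of the tested genes, and 45.7% in the authors' processed values. The median difference over all genes was 0.015, -0.11 and 0.075 under the first 3 scalings, so weak shifts in particular are relative to that zero. Of the called genes, 363 (3.99% of those tested and 29.2% of those called) were alike on both diets, with 229 rises and 134 falls. These were 2.52% and 1.47% of the genes tested. The class describes sizes and is no test that the differences are equal. A further 381 (4.19%) were unequal, with 80 rises and 301 falls, and 500 were neither. In single-diet comparisons of the same fit, 1799 genes (19.8%) passed on the western diet, 76 (0.836%) passed on chow, and the difference between diets passed for 641 (7.05%). The main effect and the 2 single-diet comparisons use the same arrays, so their counts are not independent of each other.

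**Figure D1:**
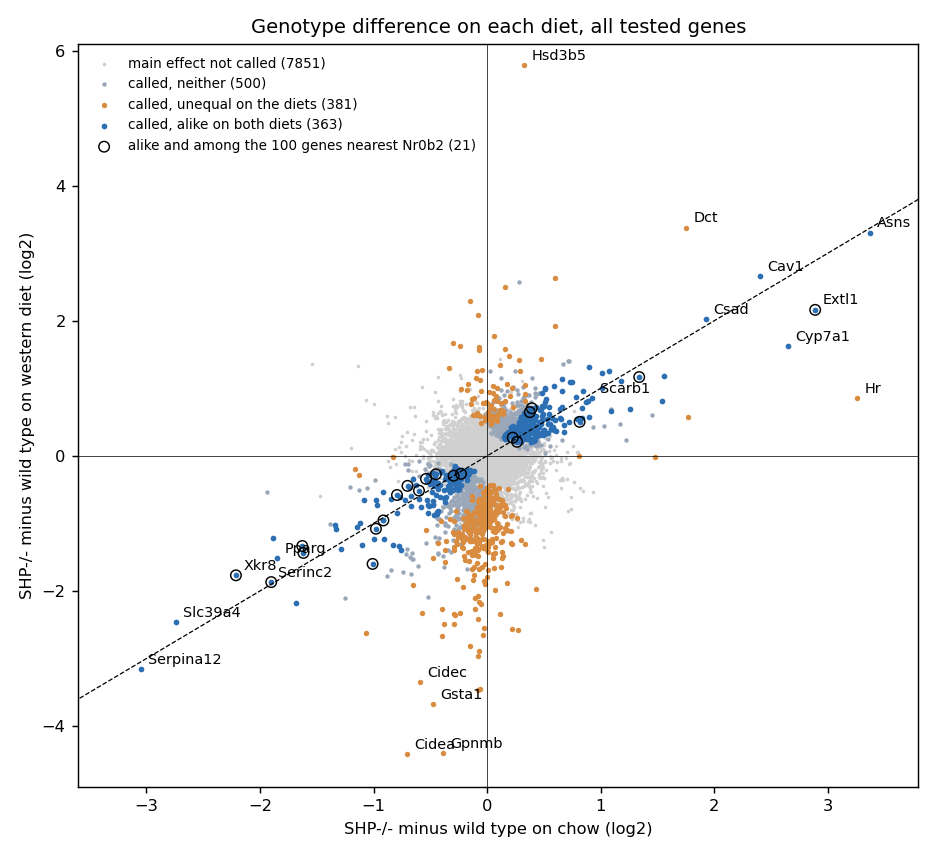
Each point is 1 of 9095 genes, with SHP-/- minus wild type on chow (x, log2) against the same difference on the western diet (y, log2); the dashed line marks equal differences. Blue points (363) are alike and lie along the line from Serpina12 to Asns, orange points (381) are unequal and spread mostly along the western axis, grey-blue points (500) are called but neither, pale points are not called, and rings mark alike genes among the 100 tested genes nearest to Nr0b2.

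Cyp7a1, which catalyses the first and controlling step from cholesterol to bile acids, rose alike on both diets, and Csad, which makes the taurine precursor used to conjugate bile acids, rose by almost the same amount on each. Of the 16 tested bile acid synthesis genes 3 rose (Cyp7a1, Cyp7b1 and Cyp8b1) and 0 fell, where 5.96% of all tested genes rose and 7.72% fell, with a median difference of 0.098 against 0.015 over all genes; 6 rose under scaling by the tested-gene median. On the western diet alone 7 of the 16 rose and 1 fell, where 19.8% of all tested genes passed. On chow alone 1 rose, where 0.836% passed. Cyp7a1 read 11.20, 11.51, 11.48 and 11.74 in SHP-/- livers on the western diet, against 9.32, 8.79, 10.34 and 10.97 in wild type livers. On chow its values were 10.10, 9.52, 11.30 and 10.62 in SHP-/- livers, against 7.33, 8.41, 7.62 and 7.58 in wild type livers. The genotypes did not overlap on either diet, although western-fed wild type livers reached the range of chow-fed SHP-/- livers. Separation within each diet was a condition for the 12 largest alike rises and falls, here and below, so it is no separate result for them. The main effect was 2.14 ± 0.27 (SE), adjusted p = 3.29e-05, or 4.39-fold, and the western difference minus the chow difference was -1.03 (95% interval -2.17 to 0.11), an interval that includes 0 and is wide.

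Csad measured 12.63, 12.52, 12.55 and 12.17 in SHP-/- livers on the western diet, against 10.29, 10.25, 10.65 and 10.56 in wild type livers. Its chow values were 12.35, 12.85, 12.57 and 12.64 in SHP-/- livers, against 10.47, 10.60, 10.83 and 10.79 in wild type livers. All 8 SHP-/- arrays lay above all 8 wild type arrays by more than 1 log2 unit, whatever the diet. Csad had the smallest p of all 9095 genes in the main effect (1.98 ± 0.089 (SE), adjusted p = 5.63e-11; 3.94-fold), and the western difference minus the chow difference was 0.094 (95% interval -0.28 to 0.47). The other 2 genes of bile acid synthesis that rose were unequal: Cyp8b1, the sterol 12α-hydroxylase, differed by 1.42 on the western diet and 0.28 on chow, and Cyp7b1, the oxysterol 7α-hydroxylase, by 2.29 and -0.15. Bile acid and organic anion transport had 3 rises and 2 falls of 12 tested genes, where 5.96% of all tested genes rose and 7.72% fell. The rises were those of Abcb11, Slc10a1 and Slc22a7, and the falls those of Slco1a4 and of Ephx1, an enzyme on that list. Abcb11, the canalicular bile salt export pump, rose alike (0.39 ± 0.11 (SE), adjusted p = 0.0181), though not under median scaling (adjusted p = 0.14). Slco1a4, a basolateral organic anion importer, fell alike (-0.72 ± 0.11 (SE), adjusted p = 0.000161), and Ephx1, the microsomal epoxide hydrolase, fell unequally, by 1.10 on the western diet and by 0.54 on chow. Slc10a1, the basolateral bile acid importer NTCP, rose by 0.69 on the western diet and 0.33 on chow, just short of the rule for alike genes, with a main effect of 0.51 ± 0.10 (SE), adjusted p = 0.00205. FXR itself, Nr1h4, rose by 0.38 on the western diet and 0.42 on chow (0.40 ± 0.086 (SE), adjusted p = 0.00399); its call was lost under median scaling (adjusted p = 0.072).

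**Figure D2:**
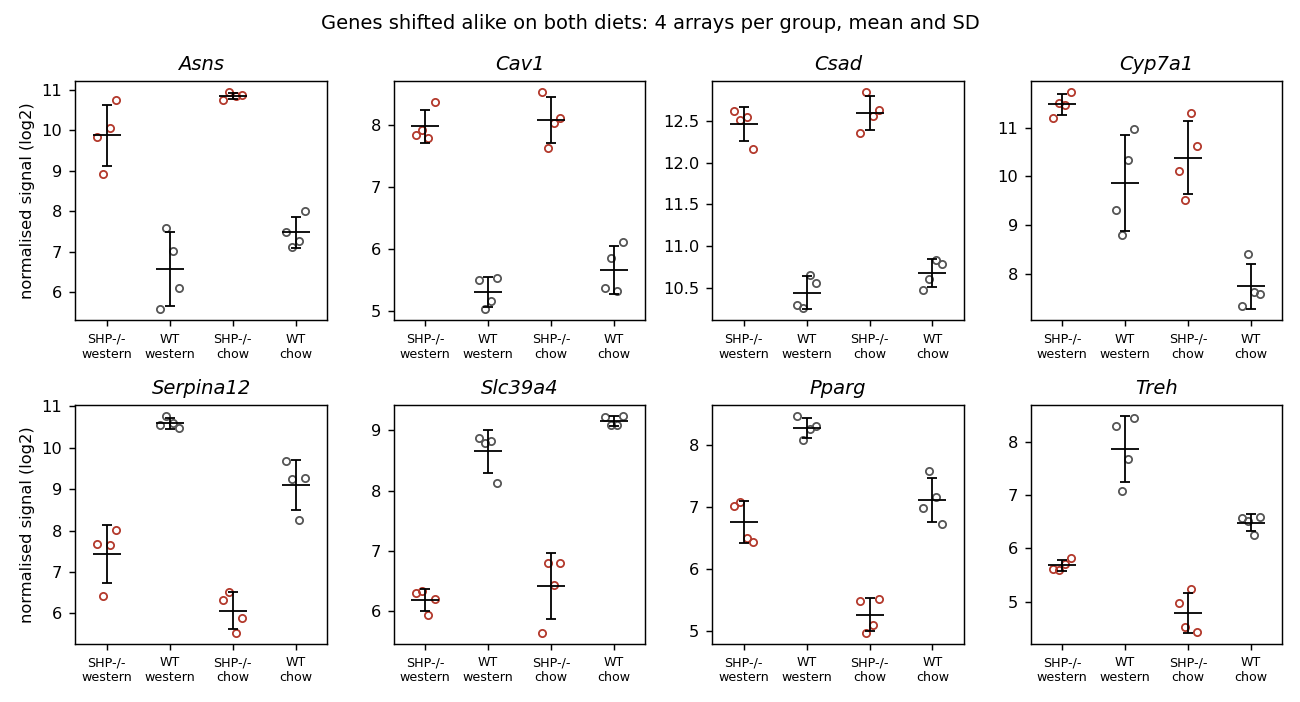
Normalised signal (log2) of 8 genes that shifted alike, with 1 point per array, a bar for the group mean and whiskers for the SD of 4 arrays; red points are SHP-/- and grey points wild type, with the western diet left of chow. In the upper row (Asns, Cav1, Csad, Cyp7a1) and in the lower row (Serpina12, Slc39a4, Pparg, Treh) the genotypes do not overlap on either diet. All 8 come from the 12 largest alike rises and falls, which were chosen among genes separated in this way, so the separation is no separate result.

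Asns, which makes asparagine from aspartate and glutamine and is a standard target of the amino acid response factor ATF4, showed the largest alike rise. It read 9.82, 8.91, 10.05 and 10.73 in SHP-/- livers on the western diet, against 5.58, 7.59, 7.02 and 6.09 in wild type livers. On chow the values were 10.74, 10.94, 10.84 and 10.86 in SHP-/- livers, against 7.49, 7.12, 7.27 and 8.01 in wild type livers. Every SHP-/- array exceeded every wild type array, and the SHP-/- chow arrays were the most tightly spaced of the 4 groups. The main effect of 3.34 ± 0.25 (SE), adjusted p = 4.62e-08 is a 10.1-fold rise, and the difference between diets was -0.066 (95% interval -1.12 to 0.99). Its promoter is shown because it was found to hold the composite site TGATGNAA that C/EBP and ATF factors bind, searched on both strands of the 250 bases before the start and set in capitals. The sequence is from RefSeq on GRCm38.p6 (chr6:7693210-7693459, minus strand), with the site 23 to 16 bases before the start.
Asns: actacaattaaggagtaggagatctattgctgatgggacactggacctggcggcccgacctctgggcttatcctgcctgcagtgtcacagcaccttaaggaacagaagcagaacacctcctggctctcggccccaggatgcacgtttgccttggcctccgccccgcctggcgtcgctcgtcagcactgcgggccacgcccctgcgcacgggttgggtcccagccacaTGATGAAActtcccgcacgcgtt Of tested genes with a RefSeq promoter (7409 of 9095 matched), 2.74% held this motif, as did 1.7% of alike rises and 6% of alike falls. The other ATF4 targets did not follow Asns: of 19 tested genes of that list 2 rose (Asns and the mitochondrial serine hydroxymethyltransferase Shmt2) and 4 fell. Among all tested genes 5.96% rose and 7.72% fell. Chac1, a glutathione-degrading enzyme induced by ATF4, fell alike (-1.10 ± 0.16 (SE), adjusted p = 0.000161), and Ddit3, the stress factor CHOP, also fell alike, by 0.84 on the western diet and by 0.44 on chow. Nupr1, a stress-induced chromatin protein, and Psat1, of serine synthesis, fell on the western diet (by 1.89 and by 1.36) with chow differences of -0.019 and -0.034.

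Genes of cholesterol synthesis and uptake were higher in SHP-/- livers, with near-equal median differences on both diets. Of 18 tested, 10 rose and 0 fell, against 5.96% rising and 7.72% falling among all tested genes; 6 were alike (Cyp51, Dhcr7, Fdps, Msmo1, Nsdhl and Pmvk) and all 18 had a positive difference. The median member differed by 0.59 on the western diet, 0.53 on chow and 0.53 in the main effect, and under the other scalings 8 to 13 members rose. Msmo1, the C4-methylsterol oxidase, read 7.79, 7.85, 9.28 and 7.35 in SHP-/- livers on the western diet, against 7.09, 6.97, 6.97 and 7.23 in wild type livers. Its chow values were 9.11, 8.41, 9.16 and 8.66 in SHP-/- livers, against 8.10, 8.14, 7.80 and 7.23 in wild type livers. The genotypes did not overlap on either diet, though 1 western-fed SHP-/- liver stood well above the other 3. The main effect was 1.01 ± 0.21 (SE), adjusted p = 0.00279, a 2.01-fold rise, with a difference between diets of -0.011 (95% interval -0.88 to 0.86). Fdps, which makes farnesyl diphosphate, rose by 1.11 on the western diet and 1.18 on chow (main effect 1.14 ± 0.27 (SE), adjusted p = 0.00778), and Cyp51, the lanosterol demethylase, by 0.79 and 0.87 (0.83 ± 0.16 (SE), adjusted p = 0.00156). Pmvk and Nsdhl, a kinase and a dehydrogenase of the same pathway, passed in neither single-diet comparison of the same fit. Pmvk differed by 0.37 and 0.60 (0.48 ± 0.13 (SE), adjusted p = 0.0166) and Nsdhl by 0.55 and 0.65 (0.60 ± 0.19 (SE), adjusted p = 0.0387). Hsd17b7 rose unequally, by 0.92 on the western diet and 0.34 on chow. Sqle, the squalene epoxidase, differed by 0.61 on the western diet and 1.45 on chow (1.03 ± 0.19 (SE), adjusted p = 0.000952); it was in neither class, and it was detected in 13 of 16 arrays. Srebf2, the transcription factor that drives this pathway, rose by 0.43 ± 0.10, mainly on the western diet (0.69 against 0.17 on chow), and Srebf1 differed by -0.015 ± 0.20 (adjusted p = 0.976). Without 1 western-fed SHP-/- array (replicate 3) the number of alike members was 3 and the main-effect median was 0.42, with 10 members rising. The promoter of Dhcr7, the last enzyme of the pathway, is shown because it is the 1 of the 10 risen genes (8 matched to RefSeq promoters) with AAGGTCA, the single site bound by LRH-1 and by other nuclear receptors; the sterol regulatory element letters TCACNCCAC were in 0 of the 8. It lies at chr7:143822917-143823166, plus strand of GRCm38.p6, with that site in capitals 51 to 45 bases before the first of its RefSeq starts.
Dhcr7: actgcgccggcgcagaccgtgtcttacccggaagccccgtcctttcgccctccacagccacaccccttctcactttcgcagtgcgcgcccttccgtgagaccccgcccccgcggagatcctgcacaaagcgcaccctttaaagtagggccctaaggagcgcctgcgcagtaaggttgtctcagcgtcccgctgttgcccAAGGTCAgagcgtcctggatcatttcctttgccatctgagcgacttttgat AAGGTCA was found in 4.02% of tested genes with a promoter, in 1.7% of alike rises and in 3% of alike falls.

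Enzymes that handle methionine, homocysteine, one-carbon units and taurine also leaned upward on both diets, several of them by amounts that neither single-diet comparison of the same fit resolved. Of 18 tested, 10 rose and 0 fell (Ahcy, Bhmt, Bhmt2, Csad, Cth, Dmgdh, Gnmt, Pemt, Sardh and Shmt1), where 5.96% of all tested genes rose and 7.72% fell. The list had a median of 0.33 on the western diet, 0.20 on chow and 0.32 in the main effect. In the single-diet comparisons 8 members rose on the western diet and 2 on chow, with 0 falls, where 19.8% and 0.836% of all tested genes passed. Alike rises numbered 4 of the 10 (Ahcy, Bhmt, Csad and Cth). Under median scaling of all probes 4 members passed, with a median still 0.35 above that of all genes, and 12 passed under scaling by the tested-gene median. Bhmt, which remethylates homocysteine with betaine, read 12.23, 12.20, 12.41 and 12.56 in SHP-/- livers on the western diet, against 12.19, 11.28, 11.26 and 12.41 in wild type livers. On chow it read 11.80, 11.85, 12.10 and 12.57 in SHP-/- livers, against 11.34, 11.61, 11.21 and 10.58 in wild type livers. The genotypes were apart on chow and overlapped on the western diet, where 1 wild type liver lay inside the SHP-/- range and 1 just under it. Only the 8 against 8 comparison called it (0.73 ± 0.17 (SE), adjusted p = 0.00755; 1.66-fold), and its difference between diets was -0.33 (95% interval -1.05 to 0.40). Its promoter is shown because it holds AAGGTCA 2 times, 73 to 67 and 48 to 42 bases before the start, both in capitals. The window is chr13:93637759-93638008, minus strand, of GRCm38.p6 in RefSeq.
Bhmt: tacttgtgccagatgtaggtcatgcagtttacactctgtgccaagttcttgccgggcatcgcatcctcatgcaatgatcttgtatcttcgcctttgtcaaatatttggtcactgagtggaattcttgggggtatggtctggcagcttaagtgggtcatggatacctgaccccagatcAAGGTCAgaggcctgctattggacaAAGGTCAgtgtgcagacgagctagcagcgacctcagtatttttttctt Ahcy, the hydrolase that releases homocysteine, and Bhmt2, a close relative of Bhmt, were resolved the same way, Ahcy at 0.35 ± 0.096 (SE), adjusted p = 0.0189 and Bhmt2 at 0.31 ± 0.090 (SE), adjusted p = 0.028. Cth, cystathionine γ-lyase, rose by 1.04 on the western diet and 0.59 on chow (0.81 ± 0.17 (SE), adjusted p = 0.00366), which meets the rule for alike genes. Dmgdh, the dimethylglycine dehydrogenase one step past Bhmt, had the larger difference on the western diet (1.41, against 0.71 on chow) and a main effect of 1.06 ± 0.13 (SE), adjusted p = 1.79e-05. For Gnmt, Pemt and Shmt1 the chow differences were 0.094, 0.049 and 0.14, against 0.68, 0.53 and 0.75 on the western diet, so these 3 are not alike.

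The largest falls shared by both diets belonged to Serpina12, Slc39a4, Xkr8, Treh, Serinc2 and Pparg. Serpina12, the serpin and adipokine vaspin, read 7.66, 6.42, 7.65 and 8.0 in SHP-/- livers on the western diet, against 10.54, 10.78, 10.59 and 10.47 in wild type livers. On chow it was 6.31, 6.52, 5.53 and 5.88 in SHP-/- livers, against 9.67, 9.24, 8.25 and 9.28 in wild type livers. All SHP-/- values lay below all wild type values, and in both genotypes the western-fed livers had the higher mean. It fell 8.61-fold (-3.11 ± 0.21 (SE), adjusted p = 1.11e-08), with a difference between diets of -0.11 (95% interval -1.0 to 0.78). With the probes of the gene averaged its main effect was -1.83, still called. Slc39a4, the zinc importer ZIP4, had 6.30, 6.34, 5.93 and 6.19 in SHP-/- livers on the western diet, against 8.88, 8.79, 8.83 and 8.12 in wild type livers. Its chow values were 5.64, 6.79, 6.44 and 6.80 in SHP-/- livers, against 9.22, 9.09, 9.08 and 9.24 in wild type livers. The genotypes were separated by more than 1 log2 unit on each diet, and the 6.07-fold fall (-2.60 ± 0.15 (SE), adjusted p = 9.58e-10) differed between diets by 0.28 (95% interval -0.34 to 0.89).

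Pparg, the nuclear receptor PPARγ, which promotes lipid storage, read 7.01, 7.08, 6.50 and 6.43 in SHP-/- livers on the western diet, against 8.47, 8.08, 8.25 and 8.30 in wild type livers. On chow the values were 5.47, 4.97, 5.09 and 5.51 in SHP-/- livers, against 6.98, 7.58, 7.16 and 6.72 in wild type livers. The genotypes did not overlap on either diet, while western-fed SHP-/- livers and chow-fed wild type livers did overlap. The fall was 3.21-fold (-1.68 ± 0.13 (SE), adjusted p = 6.10e-08), and the difference between diets was 0.33 (95% interval -0.22 to 0.88). Genes of lipid droplets and PPARγ targets fell too, 7 of 18 tested with 0 rises (7.72% of all tested genes fell and 5.96% rose), but Pparg was the 1 alike gene among the 7. Cidec, which enlarges lipid droplets, fell by 3.35 on the western diet with a difference of -0.59 on chow, and Cidea, its relative, by 4.42 with -0.70; Cidea was detected in 1 of 4 chow-fed SHP-/- arrays. The list's median was -0.39 on the western diet and -0.075 on chow. Treh, which splits trehalose, had 5.61, 5.60, 5.71 and 5.82 in SHP-/- livers on the western diet, against 8.29, 7.08, 7.67 and 8.44 in wild type livers. Its chow values were 4.97, 4.53, 5.24 and 4.43 in SHP-/- livers, against 6.57, 6.51, 6.24 and 6.59 in wild type livers, and it was detected in 2 of the 4 chow-fed SHP-/- arrays. Genotypes did not overlap, and the main effect was -1.93 ± 0.16 (SE), adjusted p = 1.90e-07. Fgf21, a hepatic hormone of fasting and PPARα signalling, was the 1 gene of 17 tested in the fatty acid oxidation list to pass, and it fell alike (-1.08 ± 0.24 (SE), adjusted p = 0.00514).

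The remaining large alike genes have varied known roles. Cav1, the coat protein of caveolae, read 7.83, 7.92, 7.79 and 8.36 in SHP-/- livers on the western diet, against 5.50, 5.04, 5.17 and 5.54 in wild type livers. On chow it was 8.53, 7.63, 8.03 and 8.11 in SHP-/- livers, against 5.38, 5.87, 5.32 and 6.12 in wild type livers. This was a 5.79-fold rise (2.53 ± 0.14 (SE), limma, adjusted p = 9.58e-10), with a difference between diets of 0.26 (95% interval -0.33 to 0.86). Cav1 was the 1 of 15 tested endothelial markers called in the main effect, where 13.7% of all tested genes were called. The median of that list was -0.12. On the western diet alone 3 endothelial markers fell beside the rise of Cav1, where 19.8% of all tested genes passed. The summed endothelial signal was 4227 to 5343 in SHP-/- and 4702 to 4991 in wild type livers on the western diet, and 4539 to 5224 in SHP-/- and 4420 to 5046 in wild type livers on chow, ranges that overlap. Among other rises, Mmd2, a membrane protein of the progestin and adipoQ receptor family, ranged 7.80 to 8.80 with a median of 8.62 in SHP-/- livers, against 6.34 to 8.08 with a median of 7.08 in wild type livers (main effect 1.37). Slc17a8, a vesicular glutamate transporter, ranged 7.62 to 8.88 with a median of 8.22 in SHP-/- livers, against 6.63 to 7.42 with a median of 7.06 in wild type livers (1.17). Epop, a partner of Polycomb complexes, rose by 1.12, Hsd17b6, a steroid and retinol dehydrogenase, by 0.90, and P2ry1, a receptor for ADP, by 0.90. Scarb1, the HDL receptor SR-BI, measured 7.33, 7.37, 7.35 and 7.35 in SHP-/- livers on the western diet, against 6.69, 6.47, 6.6 and 6.21 in wild type livers. On chow Scarb1 read 7.51, 7.23, 7.78 and 7.41 in SHP-/- livers, against 6.87, 6.43, 6.00 and 6.92 in wild type livers, and the 8 arrays of each genotype did not overlap (0.89 ± 0.12 (SE), adjusted p = 6.26e-05). Among falls, Olig1, a transcription factor known from the nervous system, ranged 5.38 to 7.72 with a median of 6.67 in SHP-/- livers, against 7.78 to 8.95 with a median of 8.08 in wild type livers (-1.55 ± 0.16 (SE), adjusted p = 3.96e-06). Enpp6, a choline phosphodiesterase, fell by 1.18 and Cxcl9, a chemokine induced by interferon γ, by 1.33. Of the 363 alike genes, 114 (69 rises and 45 falls) had genotypes that did not overlap on either diet, a pattern found in 189 tested genes, or 2.08%. A second detected probe existed for 89 of the 363, and it pointed the other way for 11, of which 1 had an unadjusted p under 0.05.

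Part of the strongest alike set lies close to the deleted gene itself on its chromosome. Of the 100 tested genes nearest to Nr0b2 by the distance between RefSeq gene starts, 41 were called (41%). That compares with 13.4% of the tested genes beyond them and 13% of the next 100. Alike genes numbered 21 (21%), against 3.8% among the tested genes beyond them and 2% among the next 100. The 21 comprised 7 rises and 14 falls, and 13 of them had genotypes that did not overlap on either diet. Among alike genes whose genotypes did not overlap on either diet, neighbours made up 2 of the 12 largest rises (Extl1 and Hmgn2) and 5 of the 12 largest falls (Xkr8, Serinc2, Sytl1, Bsdc1 and Sh3bgrl3). For these genes the loss of SHP and any linked stretch of chromosome carried with the deleted allele cannot be told apart in this design. Extl1, a glycosyltransferase of heparan sulfate synthesis, read 8.28, 8.04, 8.46 and 8.43 in SHP-/- livers on the western diet, against 6.74, 5.49, 5.32 and 7.02 in wild type livers. Extl1 on chow was 7.31, 7.70, 8.56 and 7.91 in SHP-/- livers, against 5.16, 4.80, 5.47 and 4.48 in wild type livers, a 5.76-fold main effect (2.53 ± 0.23 (SE), adjusted p = 4.42e-07). Genotypes did not overlap over the 16 arrays. Xkr8, a phospholipid scramblase, had 4.37, 4.96, 5.30 and 4.70 in SHP-/- livers on the western diet, against 6.62, 6.82, 6.49 and 6.46 in wild type livers. On chow Xkr8 had 4.45, 4.38, 4.71 and 4.37 in SHP-/- livers, against 6.55, 6.70, 6.78 and 6.72 in wild type livers. It was detected in 0 of 4 chow-fed SHP-/- arrays, so the fall is at least 3.61-fold (adjusted p = 1.23e-09), with fitted differences of -1.77 and -2.21. Serinc2, of the serine incorporator family, fell by 1.87 on the western diet and by 1.90 on chow, ranging 4.87 to 5.91 with a median of 5.37 in SHP-/- livers, against 6.86 to 7.54 with a median of 7.28 in wild type livers. The fitted main effects of the others were -1.53 for Sytl1, an effector of Rab27, -1.48 for Bsdc1, -1.30 for Sh3bgrl3 and 1.25 for the nucleosome-binding protein Hmgn2. Next to Nr0b2 on either side, Gpatch3 fell (-0.56 ± 0.13 (SE), adjusted p = 0.00738) and Nudc, a dynein-associated protein, differed by -0.0031 ± 0.056 (adjusted p = 0.982). Gpatch3 was not detected in any of 4 western-fed SHP-/- arrays, which makes its fall at least 1.38-fold, and its call was lost in the authors' processed values (adjusted p = 0.16). Asns, Cav1, Csad, Cyp7a1, Serpina12, Slc39a4, Treh and Pparg were not among the 100.

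**Figure D3:**
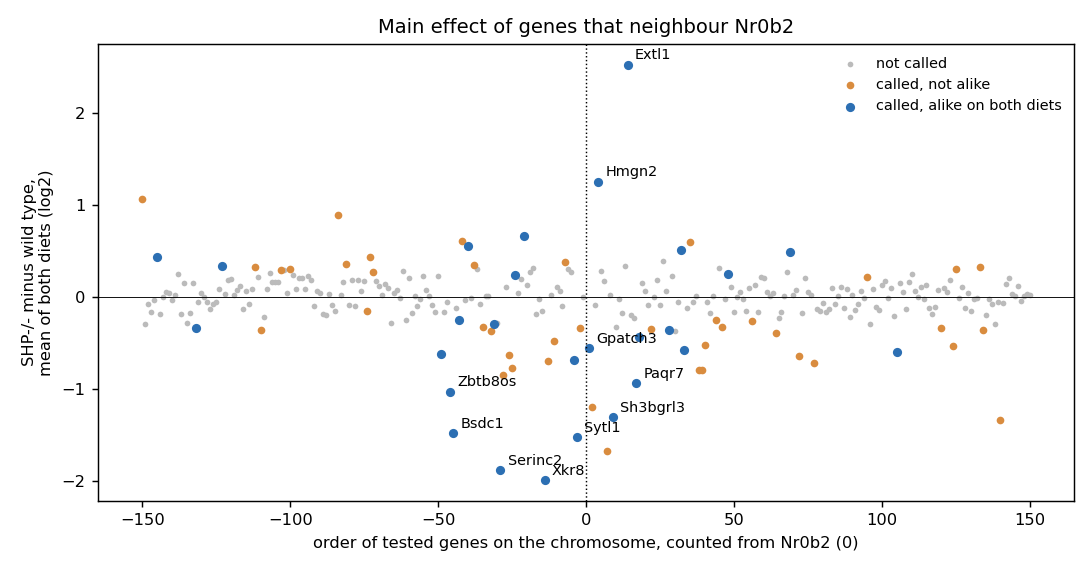
Main effect (y, log2, SHP-/- minus wild type averaged over diets) of the tested genes in their order along the chromosome, counted from Nr0b2 at 0 (x, number of tested genes, shown to 150 on either side). Blue points are called and alike, orange points called and not alike, grey points not called; within this window Extl1, Hmgn2, Xkr8, Serinc2, Sytl1, Bsdc1 and Sh3bgrl3 lie within 50 genes of Nr0b2. Cyp7a1, on the same chromosome, lies outside the window.

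Averaging over diets resolved 189 genes (2.08% of those tested) that passed in neither single-diet comparison of the same fit. They were 120 rises and 69 falls, and 158 of them were alike (105 rises and 53 falls). With each diet fitted apart instead, 246 genes called in the average passed on neither diet. Some of the 189 did pass in that chow fit, among them Slc8b1 (limma, adjusted p = 0.0398) and Cyp2b10 (adjusted p = 0.00155). The 189 were weaker shifts: their median absolute difference was 0.34 (range 0.17 to 1.24), against 0.46 for the other called genes, and 2 of them (Ccl5 and Cyp2b10) passed 2-fold. The standard error of a main effect had a median of 0.099 over all genes, against 0.14 for a difference on 1 diet. Without adjustment, 88 of the 189 had p under 0.05 on both diets, 65 on chow alone and 36 on the western diet alone. This class depends on the zero of the scale more than the large shifts do. Under median scaling of all probes 11 of the 120 rises and 68 of the 69 falls were still called, and under scaling by the tested-gene median 120 rises and 40 falls. In both of those scalings and in the authors' values 31 of the 189 were called, the 5 rises being Aifm3, Bhmt, Grk5, Rcc1 and Siah2, beside 26 falls. Siah2, a ubiquitin ligase of hypoxia signalling, read 5.90, 5.79, 6.38 and 6.05 in SHP-/- livers on the western diet, against 5.51, 5.61, 5.49 and 5.67 in wild type livers. On chow Siah2 read 6.27, 6.35, 6.47 and 6.48 in SHP-/- livers, against 6.07, 5.28, 5.51 and 5.99 in wild type livers. The genotypes were apart by a narrow margin on each diet and overlapped when the diets were pooled; the main effect was 0.57 ± 0.12 (SE), adjusted p = 0.00259, a 1.48-fold rise. Nr1i2, the xenobiotic receptor PXR, measured 9.08, 9.07, 9.13 and 9.14 in SHP-/- livers on the western diet, against 8.90, 8.64, 8.93 and 8.85 in wild type livers. Its chow values were 9.41, 9.32, 9.77 and 9.21 in SHP-/- livers, against 9.07, 9.13, 8.97 and 9.13 in wild type livers. The genotypes did not overlap within a diet, and the 1.24-fold rise (0.32 ± 0.073 (SE), adjusted p = 0.00675) was not called under median scaling (adjusted p = 0.34). Rises of the same kind were those of Slc8b1, a mitochondrial sodium and calcium exchanger (0.39), Aifm2, a ubiquinone reductase that limits lipid peroxidation (0.36), Gng7, a G protein subunit (0.40), Zfp385a (0.51), Peli2 (0.43) and C130074G19Rik (0.30), and all 6 were uncalled under median scaling. Rcc1, the exchange factor of Ran, rose by 0.66 and is one of the genes near Nr0b2.

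Among falls that only the average resolved, Eif4e3, a cap-binding protein, read 6.30, 6.11, 6.74 and 6.65 in SHP-/- livers on the western diet, against 6.77, 7.06, 6.77 and 6.91 in wild type livers. Its chow values were 5.82, 5.62, 5.44 and 5.84 in SHP-/- livers, against 6.13, 6.14, 6.48 and 6.46 in wild type livers. Genotypes did not overlap within a diet, while western-fed livers of both genotypes read higher on average than chow-fed ones of the same genotype (-0.52 ± 0.11 (SE), adjusted p = 0.00239). Junb, a subunit of the AP-1 transcription factor, read 6.79, 7.38, 6.68 and 6.99 in SHP-/- livers on the western diet, against 7.56, 7.79, 7.64 and 7.41 in wild type livers. Junb on chow was 6.86, 7.18, 7.71 and 6.20 in SHP-/- livers, against 7.75, 7.93, 8.01 and 7.66 in wild type livers. It fell 1.68-fold (-0.74 ± 0.16 (SE), adjusted p = 0.00346), with 1 chow-fed SHP-/- liver inside the wild type range. Dio1, the deiodinase that activates thyroid hormone, had 9.59, 9.17, 8.84 and 9.39 in SHP-/- livers on the western diet, against 10.26, 9.66, 9.61 and 10.11 in wild type livers. Dio1 on chow had 8.20, 8.82, 7.43 and 7.41 in SHP-/- livers, against 9.30, 8.45, 9.16 and 9.28 in wild type livers. The groups overlapped on chow by 1 high SHP-/- and 1 low wild type liver and did not overlap on the western diet, and the 1.83-fold fall was among the largest of this class (-0.87 ± 0.19 (SE), adjusted p = 0.00386). Gabarapl1 and Atg12, which act in autophagosome formation, fell by 0.36 and by 0.24, and Pde8a, a cAMP phosphodiesterase, by 0.32. The call of Gabarapl1 was lost under scaling by the tested-gene median (limma, adjusted p = 0.086). Ccser2 fell by 0.28, and Mtfr1l, Tcea3 and Gpatch3, which fell by 0.44, by 0.57 and by 0.56, are neighbours of Nr0b2.

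**Figure D4:**
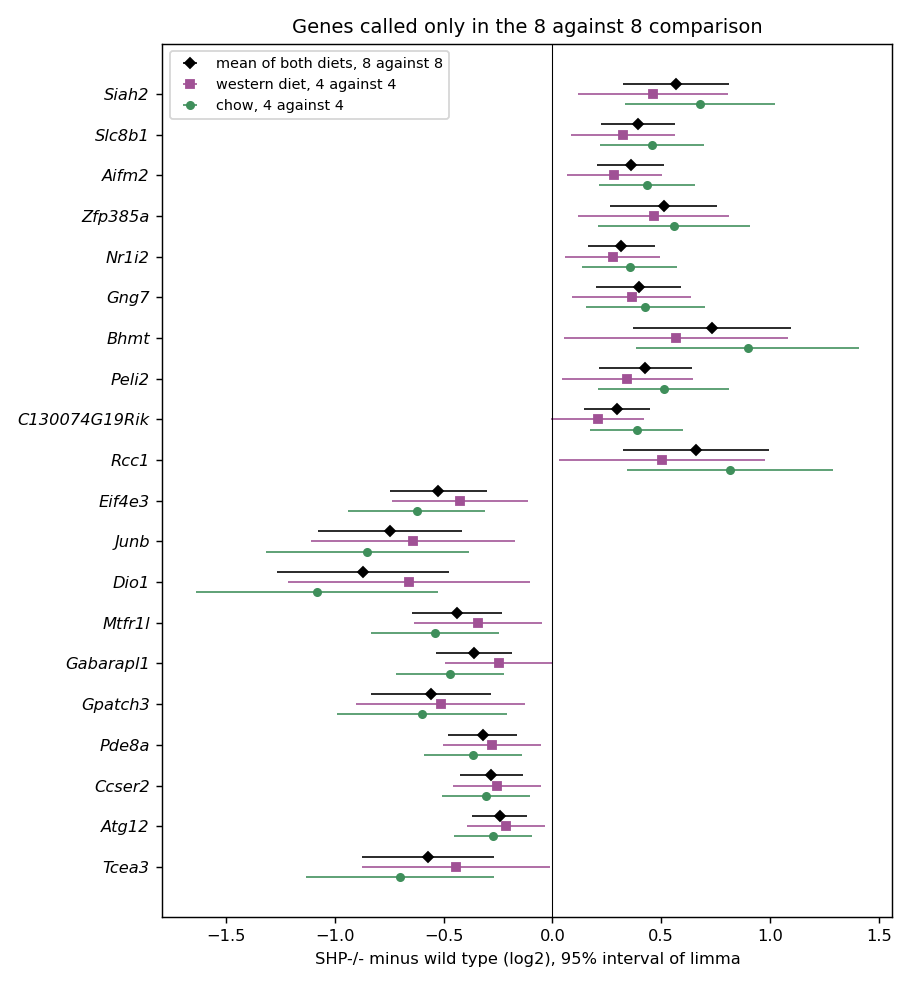
SHP-/- minus wild type (x, log2) of the 10 rises and 10 falls with the smallest main-effect p among alike genes called in the 8 against 8 comparison and in neither single-diet comparison of the same fit. Black diamonds are the mean of both diets, squares the western diet and circles chow, with 95% limma intervals. The black intervals all exclude 0 because the genes were chosen by their main-effect p. Each is narrower than the 2 single-diet intervals of its gene because it uses all arrays with the same spread estimate.

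Lipoprotein, fatty acid and acute phase lists each held some alike genes, where 5.96% of all tested genes rose, 7.72% fell and 3.99% were alike. Of 17 tested genes of apolipoproteins and lipoprotein assembly 6 rose (Apoc4, Apoh, Apom, Lcat, Lrp1 and Scarb1) and 1 fell (Pltp); 3 rose under median scaling and 9 under scaling by the tested-gene median. Apom, an apolipoprotein of HDL, read 11.32, 11.003, 11.50 and 11.77 in SHP-/- livers on the western diet, against 10.29, 10.97, 10.46 and 10.11 in wild type livers. Apom on chow was 12.01, 11.80, 11.83 and 11.91 in SHP-/- livers, against 11.44, 11.26, 11.22 and 11.69 in wild type livers. The genotypes were apart on both diets, with a larger gap on the western diet (0.94, against 0.49 on chow; main effect 0.71 ± 0.12 (SE), adjusted p = 0.000432). Lcat, which esterifies plasma cholesterol, rose unequally (0.62 on the western diet, 0.14 on chow), and Pltp, the phospholipid transfer protein, fell unequally, by 0.97 on the western diet with a chow difference of -0.086. In fatty acid and triglyceride synthesis (3 rises and 2 falls of 19 tested) the rises were alike: the desaturases Fads1 (0.46 ± 0.078 (SE), adjusted p = 0.000562) and Fads2 (0.66 ± 0.088 (SE), adjusted p = 5.92e-05) and the acyltransferase Agpat2 (0.49 ± 0.097 (SE), adjusted p = 0.0021). Fasn and Scd1, enzymes of the same list, differed by 0.25 ± 0.13 (adjusted p = 0.224) and -0.28 ± 0.098 (adjusted p = 0.0657), and the Fasn probe was detected in 8 of 16 arrays. Of 20 tested acute phase and complement genes 2 rose and 5 fell, and 4 were alike. The alike rises were those of the fibrinogen chain Fgg (0.27 ± 0.076 (SE), adjusted p = 0.0214) and of Itih3, an inter-alpha-trypsin inhibitor heavy chain (0.37 ± 0.11 (SE), adjusted p = 0.0334). The alike falls were those of C9, a pore-forming complement protein (-0.93 ± 0.14 (SE), adjusted p = 0.000125; -0.55 with its probes averaged), and Hpx, the haem carrier hemopexin (-0.33 ± 0.065 (SE), adjusted p = 0.00183; adjusted p = 0.081 under scaling by the tested-gene median). Arg1, the last enzyme of the urea cycle, fell alike (-0.43 ± 0.073 (SE), adjusted p = 0.000562), and Glul, glutamine synthetase, rose alike (0.54 ± 0.11 (SE), adjusted p = 0.00251; adjusted p = 0.055 under median scaling). Both and Aass were the genes that passed among 15 tested in the list of the urea cycle and amino acid catabolism. Aass, of lysine breakdown, rose by 0.41 and lost its call under median scaling (0.25, adjusted p = 0.171) and with its probes averaged (0.16, adjusted p = 0.512). Among 20 tested nuclear receptors and partners 2 rose (Nr1h4 and Nr1i2) and 1 fell (Pparg), all 3 alike. This count is near the 13.7% called among all tested genes, and both rises lost their call under median scaling. Nr5a2 and Hnf4a, the receptors that SHP acts on, differed by -0.059 ± 0.086 (adjusted p = 0.717) and by 0.077 ± 0.079 (adjusted p = 0.591). Abcg5, a subunit of the sterol exporter of the canalicular membrane, had opposite signs, -0.21 on the western diet and 0.61 on chow, and a main effect of 0.20 ± 0.087 (adjusted p = 0.154). Of 20 tested genes on a list linked to LRH-1 and SHP in earlier work, 8 rose and 1 fell, 6 of these alike (Apom, Bhmt, Cth, Cyp7a1, Fgf21 and Scarb1), with a median of 0.17 on the western diet and 0.28 on chow. Against 13.7% of all tested genes, 1 of 15 tested passed in the circadian clock list, 1 of 26 in oxidative phosphorylation and 1 of 14 in glucose handling, all rises, and 3 of 17 passed among chaperones (2 rises and 1 fall). The clock gene Hlf lost its call on leaving out any of 13 of the 16 arrays, and so did the respiratory chain subunit Ndufb5 and the chaperonin Hspd1 for 12 each and the thioredoxin reductase Txnrd1 for 7.

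**Figure D5:**
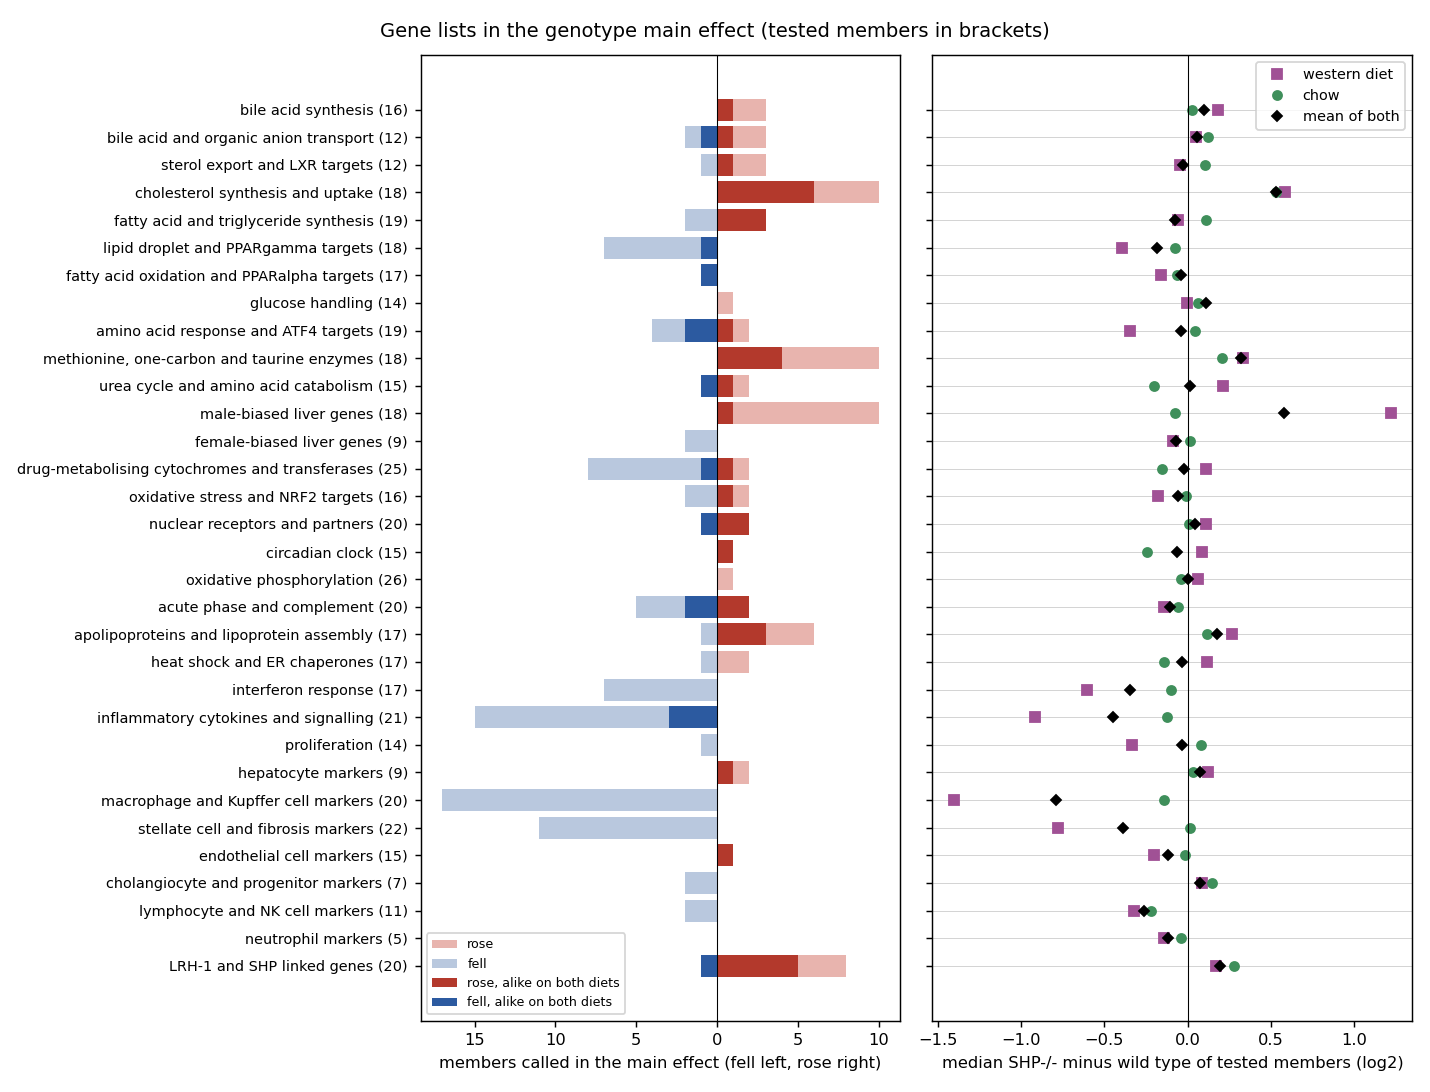
Left, number of members of each list called in the main effect (x), with falls to the left of 0, rises to the right and alike members in dark colours; tested members are in brackets. Right, median SHP-/- minus wild type of the tested members (log2) on the western diet (squares), on chow (circles) and averaged (diamonds); cholesterol synthesis has 3 nearly equal medians, while macrophage, inflammatory, stellate and male-biased lists have medians far from 0 on the western diet and near 0 on chow.

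Several large groups in the main effect came from the western diet and were not alike. Their counts stand beside 5.96% rises and 7.72% falls among all tested genes. Of 20 tested macrophage markers 17 fell and 0 rose, 12 of them unequally and 0 alike, with a median of -1.40 on the western diet and -0.14 on chow. Their summed signal was 4615 to 6247 in SHP-/- and 11964 to 26235 in wild type livers on the western diet, and 3625 to 4667 in SHP-/- and 3744 to 5998 in wild type livers on chow. Of the 17, C1qa, C1qb and C1qc are among the 100 tested genes nearest to Nr0b2, and without these 3 (an alternative chosen after seeing the data, like that without Cd52) the sum was 3365 to 4714 in SHP-/- and 9348 to 21631 in wild type livers on the western diet, and 2533 to 3489 in SHP-/- and 2717 to 4422 in wild type livers on chow. In bulk liver, fewer macrophages and less RNA per macrophage cannot be told apart. Stellate cell and fibrosis markers fell in 11 of 22 tested members (0 alike), with medians of -0.78 on the western diet and 0.018 on chow. Male-biased liver genes rose in 10 of 18 tested members, with medians of 1.22 on the western diet and -0.076 on chow; Cyp4a12a was the 1 alike gene among them. The extreme case was Hsd3b5, a male-specific steroid dehydrogenase, at 5.79 on the western diet and 0.33 on chow, and the Hsd3b5 probe was detected in 1 of 4 western-fed wild type arrays. Gpnmb, a macrophage glycoprotein, differed by -4.40 on the western diet and -0.39 on chow, and was detected in 1 of 4 chow-fed SHP-/- arrays. Gsta1, a glutathione transferase, differed by -3.67 and -0.47; none of the chow-fed SHP-/- arrays detected it, so its main fall is at least 3.69-fold. Hr, a corepressor with a role in hair growth, was the opposite case, with 8.97, 8.69, 8.62 and 8.87 in SHP-/- livers on chow, against 5.79, 5.28, 5.47 and 5.56 in wild type livers, but a smaller gap on the western diet (0.86, against 3.26 on chow). Inflammatory genes fell in 15 of 21 tested members with 0 rises (9 in the authors' values, 7 in an additive model), and 3 of the 15, Ccl5, Cxcl9 and Myd88, were alike. The chemokine Ccl5 differed by -1.32 on the western diet and -1.10 on chow (-1.21 ± 0.39 (SE), adjusted p = 0.0434) and Myd88, the adaptor of Toll-like receptors, by -0.16 and -0.28 (-0.22 ± 0.072 (SE), adjusted p = 0.0485), both called in the average alone. Lymphocyte markers, 8 of whose 21 genes were at background, had 2 falls of 11 tested, and their summed signal was 261 to 468 in SHP-/- and 967 to 2039 in wild type livers on the western diet, and 215 to 304 in SHP-/- and 295 to 654 in wild type livers on chow. The falls were those of Coro1a and Cd52, and Cd52 is among the 100 tested genes nearest to Nr0b2; it made up 39.1% to 42.4% of the sum in SHP-/- and 49.4% to 61.0% in wild type livers on the western diet. Without Cd52 the sum was 150 to 285 in SHP-/- and 441 to 827 in wild type livers on the western diet, and 175 to 217 in SHP-/- and 174 to 393 in wild type livers on chow. The part of these cells in the alike falls of Ccl5 and Cxcl9 was not tested.

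Because the diets share no array, genes called on 1 diet can be read in the other when the 2 are fitted apart. The 8 chow arrays alone called 108 genes, of which 90 (83.3%) had the same direction in western-fed mice, where 55.1% of all genes had 1 direction on both diets. Of those 108, 57 (52.8%) also passed in the same direction on the western diet, where 16% of all genes passed, and 3 passed in the opposite direction. In reverse, the western arrays alone called 1457 genes, of which 947 (65%) had the same direction on chow and 57 (3.91%) passed there, against 1.19% of all genes. In chow-called genes the median difference was 0.85 on chow and, signed by the chow direction, 0.57 on the western diet, while western-called genes had medians of 0.65 on the western diet and 0.070 on chow.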

How the data were processed

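Liver RNA of 16 mice was measured on 1 array each. The deposited table gives, per the file headers, a raw signal intensity and a detection p-value for each of 25697 probes, exported by the authors with BeadStudio per the submitters' processing notes (version not stated). The authors' processed values, also deposited as a linear intensity with values below 0 and near-equal quantiles between arrays, settings not stated, served as an alternative after a floor of 16 and log2. Of the probes, 23978 carried 1 gene symbol of the platform annotation and 1719 none. No slide or batch is named in the labels, so batch was not tested.

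Raw intensities were background-corrected, quantile-normalised and put on the log2 scale with neqc (limma 3.58.1 in R 4.3.3, offset 16), for which negative controls were inferred from the detection p-values. Probes with detection p under 0.05 in at least 4 of the 16 arrays, of whichever groups, were kept (13196, of which 12421 were named), and the brightest probe stood for a gene. The 4 group means were estimated from the 16 arrays together with lmFit and eBayes with trend (12 residual degrees of freedom), and two-sided p-values were adjusted by Benjamini and Hochberg over 9095 genes. A value with a group not detected on any array is a bound. The number of arrays, 4 per group, limits the precision. The steps were tested on simulated data. Alternatives were the background correction, scaling, authors' values, detection filter, probe rule, model, array weights, a block of replicate numbers and leaving out each array.

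The gene lists, the classes of shift and the rule for named genes were chosen with earlier results of these data known. Named genes are 22 key genes, the 12 largest rises and falls among alike genes with genotypes apart on both diets, the 10 alike rises and falls with the smallest p among genes called by the average alone, the 4 largest unequal rises and falls, up to 3 passing genes per list, and the genes next to Nr0b2. Where other genes are named, every passing member of a list is given or the gene was chosen after its values were seen. Promoters are RefSeq sequences (GRCm38.p6). The same motifs were looked for, with no match, in the promoters of Csad, Hsd17b7, Cyp51, Msmo1, Apom, Cav1, Pparg, Serpina12, Nr1i2, Nr1h4, Dio1 and Junb. Only promoters with a match are shown. Neighbours of Nr0b2 follow RefSeq gene order, and their coordinates are not used here.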

Additional observations from a re-analysis of the deposited data

Results flagged for a closer look

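In each group of 4 arrays of the 119 named genes (476 groups), the distance of the highest or lowest array from its nearest neighbour was set against the range of the group. It exceeded Dixon's 95% critical value for 4 samples in 24 groups, or 5.04%, close to the 5% that chance gives, and no array had more than 4 of them. Among SHP-/- livers on the western diet, the arrays that stood apart, with the share of the range taken by the gap, were those of Cidec (lowest in replicate 3, 0.842), Lcn2 (highest in replicate 3, 0.857) and Txnrd1 (lowest in replicate 2, 0.848). Among wild type livers on the western diet, the arrays that stood apart, with the share of the range taken by the gap, were those of Cidec (lowest in replicate 2, 0.857), Hnf4a (highest in replicate 1, 0.916), Ndufb5 (lowest in replicate 2, 0.894), Oasl1 (highest in replicate 2, 0.857), Slc39a4 (lowest in replicate 4, 0.882) and Sytl1 (lowest in replicate 3, 0.946). Among SHP-/- livers on chow, the arrays that stood apart, with the share of the range taken by the gap, were those of Alb (lowest in replicate 2, 0.836), Cd52 (lowest in replicate 3, 0.893), Chac1 (highest in replicate 3, 0.842), Cidea (highest in replicate 2, 0.835), Col1a1 (lowest in replicate 2, 0.841), Dmgdh (lowest in replicate 2, 0.89) and Mmp12 (highest in replicate 4, 0.844). Among wild type livers on chow, the arrays that stood apart, with the share of the range taken by the gap, were those of Abcg5 (highest in replicate 4, 0.832), Cidec (lowest in replicate 4, 0.911), Cth (lowest in replicate 4, 0.864), Dio1 (lowest in replicate 2, 0.835), Dmgdh (highest in replicate 1, 0.924), Gbp2 (highest in replicate 3, 0.851), Mmp12 (highest in replicate 3, 0.859) and Sytl1 (highest in replicate 4, 0.864). Of genes shown by array in the report, this touches Slc39a4 and Dio1, whose calls and directions held on leaving out any 1 array.

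For 34 named genes the effect of genotype differed between diets by limma's test of the interaction (adjusted p under 0.05 over 9095 genes, where 7.05% passed). Values are the western difference minus the chow difference on the log2 scale. It was positive for Hsd3b5 5.46, Cyp7b1 2.44, Susd4 2.35, Obp2a 2.03, Dct 1.63, Cyp8b1 1.14, Hsd17b7 0.58 and Lcat 0.47. Negative values were found for Gpnmb -4.01, Cidea -3.71, Gsta1 -3.20, Mmp12 -2.89, Cidec -2.76, Hr -2.40, Lgals3 -2.20, Lcn2 -2.16, Nupr1 -1.87, Col3a1 -1.77, Tlr2 -1.71, Cyp17a1 -1.65, Gsta2 -1.56, Col1a1 -1.54, Krt8 -1.36, Tnfaip3 -1.27, Ccnd1 -1.26, Coro1a -1.20, Gstm1 -1.11, Col4a1 -1.05, Ifit2 -0.98, Krt18 -0.94, Pltp -0.88, Abcg5 -0.82, Ephx1 -0.56 and Oasl1 -0.52. No alike gene is among them, since the class excludes such genes by rule. Hr is a gene with its larger rise on chow (3.26, with 0.86 on the western diet), and Abcg5 differed by -0.21 on the western diet and 0.61 on chow.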

How the results depend on the processing

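Of the 112 called among 119 named genes, 85 kept call and direction in all 29 other settings tried. Median scaling of all probes gave 155 rises and 1209 falls (alike 68 and 265), scaling by the median of the tested genes (an alternative chosen after seeing the data) 877 rises and 1010 genes with an interaction; each moves the median of all genes, as given above. Of the calls, 626 of 1244 calls, 156 of 363 alike and 31 of 189 resolved by the average alone were called in the same direction in both and in the authors' values. The authors' values gave 48 calls on chow, and 21 calls of the chow-only fit passed in western-fed mice. An additive model, which leaves the interaction in the residual, called 817 genes and 453 falls. Array weights gave 124 calls on chow. Alike genes numbered 235 with the smaller difference at least 2/3 of the larger and 565 with no rule of size, and 0 genes were resolved by the average alone when single-diet p-values were unadjusted. Leaving out 1 array at a time gave 1016 to 1265 calls (428 to 543 rises, 588 to 722 falls), 302 to 378 alike (183 to 242 rises, 112 to 157 falls), 272 to 445 unequal, 138 to 184 resolved by the average alone, 1336 to 1796 on the western diet, 458 to 714 for the interaction, 49 to 108 on chow (49 without wild type chow replicate 3) and 36 to 59 of the chow calls passing in western-fed mice. The sign reversed for 2 genes near 0 and uncalled throughout: Nudc (0.034 with probes averaged, 1.14e-05 with array weights, 0.066 under tested-gene scaling, -0.019 to 0.022 without single arrays) and Srebf1 (0.013 under tested-gene scaling, -0.21 to 0.088 without single arrays). With replicate number as a block, 1189 genes were called, 329 alike, 162 by the average alone, 70 on chow and 1738 on the western diet. Over 24 same-numbered pairs deviations correlated at -0.17 to 0.19, with a median of -0.010 for same numbers and -0.010 for other numbers. Of 16 arrays 7 correlated best with their own number. These values do not settle whether the numbers pair the mice, and the main fit used no pairing. Named differences moved by over 1.5 times for 22 genes with no background correction, 24 with normexp without negative controls (Treh, Xkr8, Serinc2 and Sytl1 among them), 13 under median scaling and 6 with probes averaged. Probes near background, such as those of Alb, Fasn and Xkr8, limit what their differences can show.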

Other observations

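Outside the groups described above, drug-metabolising enzymes were mixed, with 2 rises and 8 falls of 25 tested. For this and the lists below, 5.96% of all tested genes rose and 7.72% fell. The falls were mostly of glutathione transferases (Gsta1, Gsta2, Gstm1, Gstm2 and Gstm3) and of the cytochromes Cyp2a5, Cyp2b10 and Cyp2c55. Cyp2a5, a coumarin hydroxylase, fell alike (-1.21 ± 0.24 (SE), adjusted p = 0.00183). Cyp2b10, a target of the receptor CAR, was called in the average (-1.24 ± 0.33 (SE), adjusted p = 0.016) and in neither single-diet comparison of the same fit. It differed by -0.53 on the western diet and -1.94 on chow. With the diets fitted apart, it passed on chow (limma, adjusted p = 0.00155) and not on the western diet (adjusted p = 0.535). The main-effect call of Cyp2b10 was lost in the authors' values (adjusted p = 0.052) and with a robust variance prior (adjusted p = 0.057). Interferon response genes fell in 7 of 17 tested members, 0 of them alike, with a median of -0.61 on the western diet and -0.10 on chow. Gbp2, a guanylate-binding protein, differed by -1.45 on the western diet and -0.71 on chow. In the list of oxidative stress and NRF2 targets 2 genes rose and 2 fell of 16 tested, and in that of sterol export and LXR targets 3 rose and 1 fell of 12, among them Abcg8, a subunit of the sterol exporter, at 0.28 ± 0.086 (SE), adjusted p = 0.0357. Female-biased liver genes had 0 rises and 2 falls of 9 tested, proliferation genes 1 fall of 14 (the cyclin Ccnd1, -1.28 ± 0.17 (SE), adjusted p = 5.84e-05), and cholangiocyte and progenitor markers 2 falls of 7 (Krt8 and Krt18); the 5 tested of 11 neutrophil markers had a median of -0.11.

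Averaging hides genes whose shifts oppose each other. Of the 1244 called genes 154 had opposite signs on the diets, and 760 genes called on the western diet and 8 called on chow were not called in the average. When the diets were fitted apart, 3 genes passed on both with opposite signs (Aatk, App and Nxpe2), here named after their values were seen. Aatk, a kinase, averaged 9.13 ± 0.18 in SHP-/- and 7.77 ± 1.02 in wild type livers on the western diet (SD, n = 4 arrays each), and 7.40 ± 0.39 in SHP-/- and 8.94 ± 0.13 in wild type livers on chow. Its main effect of -0.089 ± 0.23 (limma, adjusted p = 0.85) stands for neither diet, with a western difference minus chow difference of 2.90 (95% interval 1.95 to 3.85).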
